A study of Mus musculus with 24 samples.

Results

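Hearts in which the gene Fkbp1a was deleted with Cre recombinase driven by the muscle creatine kinase (MCK) promoter were compared with hearts that carried a Cre transgene but no floxed Fkbp1a. The 12 libraries were taken by their genotype label, 6 labelled FKl/l MCK+ and 6 labelled MHC CRE Only, out of 24 libraries of whole mouse heart RNA. FKl/l MCK+ mice carry floxed Fkbp1a alleles and Cre under the MCK promoter, which the design text gives as active from embryonic day 13. MHC CRE Only mice carry Cre under the promoter of alpha-myosin heavy chain (αMHC), active from embryonic day 9, and the normal gene. The genotypes thus differ in the deletion, in the Cre driver and in the floxed allele, and these cannot be told apart by this pair alone. All mice of both genotypes carry Cre, so the presence of a Cre recombinase is shared, while its amount and timing are not. The remaining libraries are 6 from floxed mice without Cre (FKl/l) and 6 from floxed mice whose Cre is under αMHC control (FKl/l MHC+), used here to set levels side by side. Each genotype has 3 libraries in each of 2 batches, as the labels name them, and a library is called by its batch and number, such as 2-3. The sources used here give neither age nor sex, and nothing says that each library is a separate animal. A p-value therefore sets a difference against the spread between libraries. In the gene tests that spread is estimated over all 24 libraries unless another fit is named.

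FKBP12, the product of Fkbp1a, is a small peptidyl-prolyl isomerase of the immunophilin class, the cellular target of FK506 and rapamycin, and sits on ryanodine receptors, the calcium release channels of the sarcoplasmic reticulum. It also binds type I receptors of the TGF-beta family. Its close relative FKBP12.6, from Fkbp1b, binds the cardiac ryanodine receptor as well. A Cre-only genotype serves as a control for effects of the recombinase itself, and a floxed genotype without Cre as one for the allele and its surroundings.

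Gene counts summed to between 27799403 and 40412640 per library. Mitochondrially encoded genes took 31.5% ± 3.95 (SD, n = 6) of them in FKl/l MCK+ and 30.7% ± 4.88 (SD, n = 6) in MHC CRE Only, a difference of 0.762 points (exact permutation test within batches, two-sided p = 0.64). Within batch 1 the difference was -1.13 points (p = 1) and within batch 2 it was 2.65 points (p = 0.1, the smallest that 3 against 3 libraries allow), both by the exact permutation test. Cardiomyocyte markers were abundant in every library, with a summed level of 62205 to 73162 CPM (counts-per-million values on scaled library sizes) in FKl/l MCK+ and 56685 to 73972 CPM in MHC CRE Only. Among the compared libraries 3 stood apart. MHC CRE Only 1-3 had a low Fkbp1a level for its label. MHC CRE Only 2-3 held lung and airway markers at a summed 1370 CPM. The sum was 87.5 to 138 CPM in FKl/l MCK+ and 124 to 223 CPM in the other MHC CRE Only libraries. In FKl/l MCK+ most of it came from the 1 marker Hopx, with a mean of 102 CPM. The mean of Hopx in MHC CRE Only was 115 CPM. Outside the compared pair, FKl/l 1-1 held 612 CPM of these markers, against 106 to 145 CPM in the other FKl/l libraries. FKl/l MCK+ 1-2 differed from its batch mates by a chi-square per degree of freedom of 69.4 and 72, where those differed from each other by 17.8, and its mitochondrial share was 29.1% against 36.5% and 36.4%. By the same measure MHC CRE Only 1-3 differed from its batch mates by 76.3 and 40.6, where those differed from each other by 15.2.

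The deletion was visible in the transcript of the targeted gene. Fkbp1a (ENSMUSG00000032966, GRCm38 chr2:151542483-151561692, plus strand) lay at 51.1, 64.6 and 81.1 CPM (lowest, median and highest) in FKl/l MCK+ and at 81.8, 129 and 138 CPM in MHC CRE Only. The ranges touched without crossing, because the one labelled MHC CRE Only 1-3 stood at 81.8 CPM while the other 5 ranged from 122 to 138 CPM. The log2 fold change was -0.92 ± 0.125 (SE; adjusted p = 0.000709, edgeR's quasi-likelihood test), which leaves 53% of the control level. Leaving out MHC CRE Only 1-3 gave -1.02 (adjusted p = 1.63e-06). That library was picked by its Fkbp1a level, close to the deleted libraries, so a larger difference without it follows from the choice. In the whole heart, loss from a part of the cells and a lower level in all cells cannot be told apart, and this holds for every gene below. Against FKl/l, at 130 ± 10.1 CPM (SD, n = 6), FKl/l MCK+, at 65.1 ± 10.7 CPM (SD, n = 6), was lower as well (adjusted p = 0.00032 by the same test). The αMHC-driven deletion left 59.1 ± 12.6 CPM (SD, n = 6) and differed from FKl/l MCK+ by a log2 value of -0.14 ± 0.124 (adjusted p = 0.638). Fkbp1b was near the lower end of detection, with 0.277 to 0.722 CPM in FKl/l MCK+ and 0.175 to 0.772 CPM in MHC CRE Only, and ranges that overlapped almost throughout (log2 fold change -0.15 ± 0.341, adjusted p = 0.918). Of the 14 FKBP genes tested Fkbp1a alone was called, and 12 had a log2 value below 0, with Fkbp4, a partner of HSP90, at -0.04 and Fkbp8, an anchored mitochondrial member, at -0.06. The 2 above 0 were Fkbp11 at 0.46 ± 0.2 (adjusted p = 0.448) and Fkbp3 at 0.16 ± 0.082 (adjusted p = 0.51).

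Few other genes differed. Of 16018 genes tested, 16 were called at an adjusted p under 0.05, or 0.0999%, with 8 higher (0.0499%) and 8 lower (0.0499%) in FKl/l MCK+. Their log2 fold changes had the same sign in both batches for all 16, and 4 were at least 2-fold. At an unadjusted p under 0.05 there were 1624 genes (10.1%), of which the higher ones made up 4.96% of all genes and the lower ones 5.18%. The 6 libraries of FKl/l MCK+ lay wholly above the 6 of MHC CRE Only for 43 genes (0.268%) and wholly below for 29 (0.181%), and this was so for 3 and 5 of the called genes. In the same fit, 8 genes (0.0499%) were called between FKl/l MCK+ and FKl/l, 7 (0.0437%) between MHC CRE Only and FKl/l, and 299 (1.87%) between FKl/l MHC+ and MHC CRE Only. These comparisons share libraries with the one described here. With the library labelled MHC CRE Only 1-3 left out the count was 15, of which 11 were among the 16, and without both 1-3 and 2-3 it was 12, again with 11 among the 16. The calls of Gm49891, Ndnf, Fkbp1a, Rem1, Slc52a3, Zcchc3 and Pygb held whichever of the 12 libraries was left out, and the other 9 were lost in at least 1 such fit. In a fit of the 12 compared libraries alone 18 genes were called, 12 of them among the 16. The calls lost there were those of Gm36827 (adjusted p = 0.196), Sel1l3 (0.187), Kcne1 (0.18) and Hyou1 (0.0555).

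**Figure D1:**
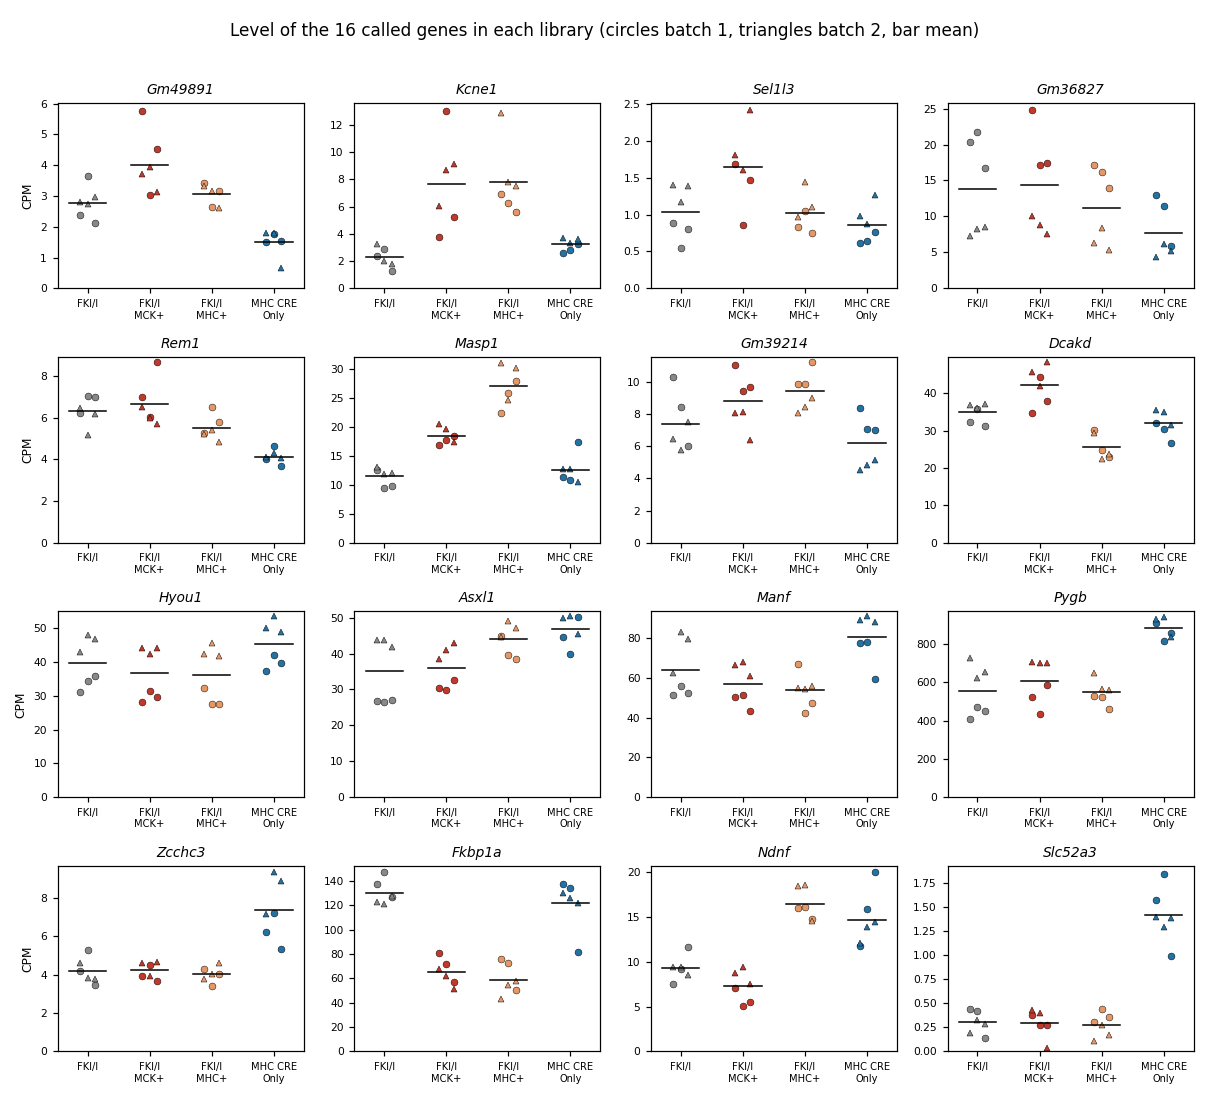
Level in CPM (linear axis from 0) of the 16 called genes in each library of the 4 genotypes, circles for batch 1 and triangles for batch 2, with a bar at the mean of 6 libraries. Slc52a3, Zcchc3 and Pygb are high in MHC CRE Only alone, Fkbp1a is low in both deletions, and Kcne1 and Masp1 are high in both.

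The called genes fall into groups by where they stand in the other genotypes. The first is made of genes that differed from MHC CRE Only and also from FKl/l, and it holds Fkbp1a, Masp1 and Kcne1. Kcne1 (ENSMUSG00000039639, chr16:92345982-92359468, minus strand) encodes the small beta subunit that, with Kcnq1, forms the slow delayed rectifier potassium channel. Its level was 3.8, 7.38 and 13 CPM (lowest, median, highest) in FKl/l MCK+ and 2.62, 3.31 and 3.68 CPM in MHC CRE Only. Every deleted library lay above every control library, although the lowest, FKl/l MCK+ 1-1, did so by a small margin. In log2 terms the change was 1.26 ± 0.249 (SE; adjusted p = 0.0498), against 1.77 ± 0.255 over FKl/l (adjusted p = 0.00241), both by edgeR's quasi-likelihood test. The call is at the threshold and did not hold in 18 of 24 fits that each omitted 1 library (adjusted p up to 0.118), with a log2 value between 1.23 and 1.33 in the fits that lost it. Kcnq1, the pore-forming partner, had 33.2 ± 2.8 CPM and 36.8 ± 4.26 CPM (SD, n = 6 each; adjusted p = 0.567).

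Masp1 (ENSMUSG00000022887, chr16:23449417-23520815, minus strand) encodes serine proteases of the lectin pathway of complement. It had 17, 18.1 and 20.6 CPM in FKl/l MCK+ and 10.5, 12.1 and 17.5 CPM in MHC CRE Only. The groups overlapped only through the library labelled MHC CRE Only 1-3, at 17.5 CPM, since the other 5 ended at 12.8 CPM. Masp1 thus rose by 0.55 ± 0.106 on the log2 scale (adjusted p = 0.0244), and 0.68 without that library (adjusted p = 7.76e-05). The library was picked by its levels, so the larger rise without it follows from the choice. Left out singly, 8 of the 12 libraries end the call (adjusted p up to 0.0886). Over FKl/l the log2 value was 0.69 ± 0.106 (adjusted p = 0.00228), and FKl/l MHC+ stood above FKl/l MCK+ by 0.55 ± 0.104 (adjusted p = 0.00466), at 27 ± 3.31 CPM (SD, n = 6). On the opposite strand Rtp4 overlaps Masp1, and since the sources used here do not state whether counting used strand, part of its reads may be counted with Masp1; Rtp4 itself had a log2 value of 0.25 ± 0.223 (adjusted p = 0.747).

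5 further genes were called against FKl/l and not here, namely Cpne5, Fbln1, Hamp, Cntn2 and Fam78a, named after their values were seen. Cpne5, a calcium-dependent phospholipid-binding copine, had 7.24 to 11.4 CPM in FKl/l MCK+ and 5.57 to 6.89 CPM in MHC CRE Only, without overlap (log2 fold change 0.60 ± 0.129, adjusted p = 0.055; 0.97 over FKl/l). Fbln1, which encodes the matrix protein fibulin-1, had 168 to 188 CPM and 113 to 148 CPM, also without overlap (0.44 ± 0.0938, adjusted p = 0.0559; 0.55 over FKl/l). In the fit of the 12 compared libraries alone both were called (adjusted p = 0.023 for Cpne5 and 0.0116 for Fbln1). The αMHC-driven deletion held 133 ± 21.4 CPM of Fbln1 (SD, n = 6), and its log2 value over MHC CRE Only was 0.02 ± 0.0938 (adjusted p = 0.941). Hamp, the iron hormone hepcidin, Cntn2, a contactin of conduction cells, and Fam78a had overlapping ranges, with log2 values of 0.33, 0.25 and 0.28 here against 0.67, 0.41 and 0.44 over FKl/l. MHC CRE Only lay between FKl/l and FKl/l MCK+ in mean level for all of these genes, with log2 values over FKl/l of 0.37, 0.11, 0.34, 0.16 and 0.16 in the order named. Genes chosen as called over FKl/l and not here tend to give this order, so it is not a separate result.

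**Figure D2:**
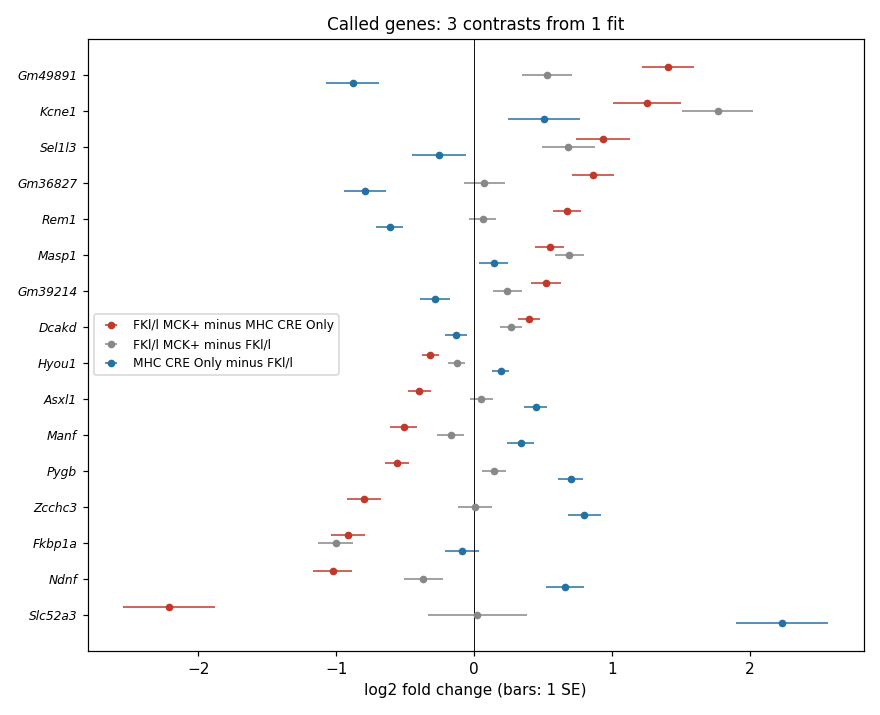
Log2 fold changes of the 16 called genes in 3 contrasts of 1 fit, with bars of 1 SE: FKl/l MCK+ minus MHC CRE Only in red, FKl/l MCK+ minus FKl/l in grey and MHC CRE Only minus FKl/l in blue. Slc52a3, Zcchc3, Pygb, Rem1 and Asxl1 have grey points between 0.00 and 0.14 and red and blue points of opposite sign; the contrasts share libraries.

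The second and larger group lies around Fkbp1a on chromosome 2. Slc52a3, Zcchc3, Pygb, Rem1 and Asxl1 start between -0.756 and 1.8 Mb from the start of Fkbp1a on GRCm38, negative values lying before it. Within 2 Mb of it, 5 of 49 other genes tested were called, which is 10.2%, against 10 of 14805 (0.0675%) on the other chromosomes. Farther out on chromosome 2 no gene was called, and the count within 20 Mb is the same 5, of 295 genes. In the contrast of MHC CRE Only with FKl/l, 6 of its 7 called genes lay in the same 2 Mb, and in that of FKl/l MCK+ with FKl/l none did.

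Slc52a3 (ENSMUSG00000027463, chr2:151996511-152009258, plus strand) encodes a riboflavin transporter. It had 0.0337, 0.328 and 0.436 CPM in FKl/l MCK+ and 0.992, 1.39 and 1.84 CPM in MHC CRE Only. All floxed libraries were low, with 0.302 ± 0.121 CPM in FKl/l and 0.28 ± 0.12 CPM in FKl/l MHC+ (SD, n = 6 each), so that MHC CRE Only stood alone. The log2 fold change was -2.21 ± 0.335 (adjusted p = 0.00106, edgeR's quasi-likelihood test) and that of MHC CRE Only over FKl/l was 2.24 ± 0.334 (adjusted p = 0.00188). Zcchc3 (ENSMUSG00000074682, chr2:152411955-152415027, minus strand) encodes a zinc finger protein that binds nucleic acids in innate sensing. It had 3.66, 4.23 and 4.65 CPM in FKl/l MCK+ and 5.31, 7.19 and 9.37 CPM in MHC CRE Only, again without overlap. Its log2 fold change was -0.80 ± 0.121 (adjusted p = 0.00106), and FKl/l MCK+ differed from FKl/l by 0.00 ± 0.123 (adjusted p = 0.999).

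Pygb (ENSMUSG00000033059, chr2:150786735-150831758, plus strand) encodes the brain form of glycogen phosphorylase, which is also made in the heart. Its level was 434, 644 and 704 CPM in FKl/l MCK+ and 816, 883 and 943 CPM in MHC CRE Only. The groups did not overlap, and FKl/l, at 554 ± 129 CPM, and FKl/l MHC+, at 547 ± 62.5 CPM (SD, n = 6 each), stood with FKl/l MCK+. Pygb had a log2 fold change of -0.56 ± 0.0876 (adjusted p = 0.00155), against 0.14 ± 0.0873 over FKl/l (adjusted p = 0.976). Of 34 genes of glucose uptake and glycolysis tested, Pygb alone was called, 29 had a log2 value below 0 and the median was -0.09, made of -0.24 in batch 1 and 0.06 in batch 2; over FKl/l the median was -0.01.

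Rem1 (ENSMUSG00000000359, chr2:152626951-152635198, plus strand) went the other way. It encodes a small GTPase of the RGK family, whose members inhibit voltage-gated calcium channels. It had 5.69, 6.27 and 8.67 CPM in FKl/l MCK+ and 3.68, 4.09 and 4.65 CPM in MHC CRE Only, with no overlap. Rem1 rose by 0.67 ± 0.0982 on the log2 scale (adjusted p = 0.000709), and 0.06 ± 0.0962 over FKl/l (adjusted p = 0.999). Asxl1 (ENSMUSG00000042548, chr2:153345829-153404007, plus strand), a chromatin regulator that acts with the deubiquitinase BAP1, had 29.8, 35.4 and 43 CPM and 40, 47.7 and 50.5 CPM, with overlap between the batches and none within either. Its log2 fold change of -0.40 ± 0.083 (adjusted p = 0.0498) missed the threshold in 18 of 24 fits with 1 library omitted (adjusted p up to 0.151). Unlike Slc52a3, Zcchc3 and Pygb it was not low in FKl/l MHC+, which had 44 ± 4.11 CPM (SD, n = 6) and lay above FKl/l MCK+ by 0.30 ± 0.083 (adjusted p = 0.0485), with a log2 value over MHC CRE Only of -0.09 (adjusted p = 0.64). A sixth neighbour, 6820408C15Rik, named after its values were seen, was called in MHC CRE Only against FKl/l (log2 -0.79 ± 0.137, adjusted p = 0.0116) and reached 0.60 ± 0.138 here (adjusted p = 0.0957).

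**Figure D3:**
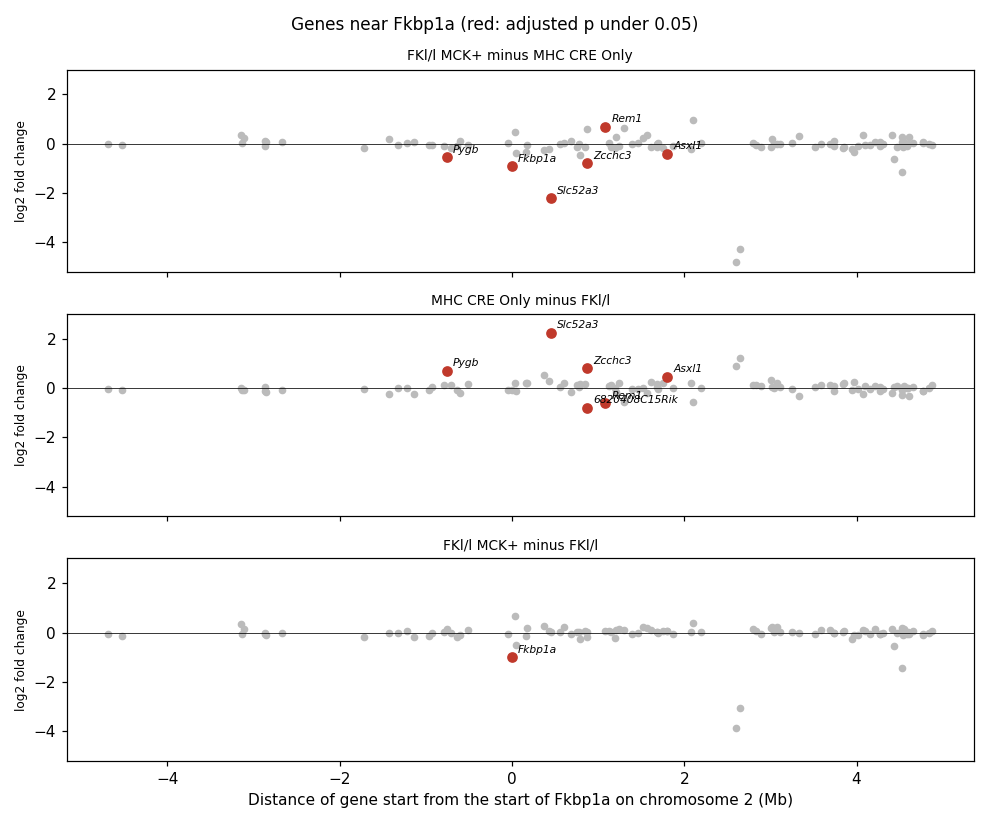
Log2 fold change of each tested gene within 5 Mb of Fkbp1a against its distance from the start of Fkbp1a in Mb, in 3 contrasts, with red points for an adjusted p under 0.05. The called neighbours of the upper panel appear with opposite sign in the middle panel, and Fkbp1a is the one red point in the lower panel; the 2 lowest grey points are the airway genes Bpifa1 and Bpifb1.

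A further set of called genes lies on other chromosomes and differed from MHC CRE Only without a call against FKl/l. Ndnf (ENSMUSG00000049001, chr6:65671590-65712326, plus strand), which encodes a secreted protein first described as a neuron-derived neurotrophic factor, fell by 1.03 on the log2 scale. It had 5.08, 7.32 and 9.47 CPM in FKl/l MCK+ and 11.7, 14.2 and 20 CPM in MHC CRE Only, without overlap (SE 0.141, adjusted p = 0.000709). FKl/l had 9.27 ± 1.38 CPM (SD, n = 6), between the compared groups, and FKl/l MHC+ had 16.4 ± 1.75 CPM (SD, n = 6). Both genotypes with αMHC-driven Cre were thus high, and FKl/l MHC+ exceeded FKl/l MCK+ by a log2 value of 1.19 ± 0.14 (adjusted p = 2.78e-05). FKl/l MHC+ over MHC CRE Only was 0.16 ± 0.136 (adjusted p = 0.617), and FKl/l MCK+ over FKl/l was -0.37 ± 0.141 (adjusted p = 0.84).

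Dcakd (ENSMUSG00000020935, chr11:102994047-103028333, minus strand), named for a dephospho-CoA kinase domain, had 34.9, 43.2 and 48.5 CPM in FKl/l MCK+ and 26.7, 31.9 and 35.6 CPM in MHC CRE Only. The ranges overlapped through FKl/l MCK+ 1-1 at 34.9 CPM. Its log2 fold change was 0.40 ± 0.0803 (adjusted p = 0.0374), and of the 12 called genes that were also called in FKl/l MHC+ against MHC CRE Only it was the one with the opposite sign there, at -0.31 ± 0.0808 (adjusted p = 0.0384). The deletions differed from each other by -0.72 ± 0.0809 (FKl/l MHC+ minus FKl/l MCK+, adjusted p = 6.93e-06). The call here was missed in 14 of 24 fits with 1 library omitted (adjusted p up to 0.115). Nmt1 overlaps Dcakd on the opposite strand at means of 125 CPM (FKl/l MCK+) and 114 CPM (MHC CRE Only), with a log2 value of 0.12 ± 0.0935 (adjusted p = 0.708). Sel1l3 had 0.858, 1.64 and 2.42 CPM in FKl/l MCK+ and 0.618, 0.819 and 1.26 CPM in MHC CRE Only, with overlap, and its call (0.94 ± 0.195, adjusted p = 0.0498) was lost in 19 of those fits (adjusted p up to 0.164).

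3 of the called genes are long intergenic RNAs of unknown role, all higher in FKl/l MCK+ and named after their values were seen. Gm49891 (ENSMUSG00000117251, chr4:88995118-89039192, minus strand) had 3.04, 3.83 and 5.77 CPM in FKl/l MCK+ and 0.644, 1.66 and 1.78 CPM in MHC CRE Only. No library overlapped (log2 fold change 1.41 ± 0.19, adjusted p = 0.000709), and FKl/l, at 2.77 ± 0.527 CPM (SD, n = 6), and FKl/l MHC+, at 3.05 ± 0.333 CPM (SD, n = 6), were both nearer to FKl/l MCK+. Gm36827 rose by 0.86 ± 0.153 (adjusted p = 0.0161) with libraries that overlapped between the batches and not within either, since its level followed the batch, at 17.2 to 24.8 CPM in batch 1 and 7.61 to 10.1 CPM in batch 2 of FKl/l MCK+. Gm39214 rose by 0.52 ± 0.108 (adjusted p = 0.0492, missed in 15 of 24 fits with 1 library omitted, up to 0.151), and it overlaps Itfg1 on the opposite strand, which had a log2 value of -0.11 ± 0.0769 (adjusted p = 0.671).

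The last pair of called genes belongs to the unfolded protein response, by which cells raise the folding capacity of the endoplasmic reticulum (ER). Its sensors ATF6, IRE1 and PERK lead to the factors ATF6, XBP1 and ATF4, and ATF6 and XBP1 act on chaperone genes through the ER stress response element, a CCAAT box set apart by a fixed spacer from CCACG. Manf, a secreted ER stress-induced factor, and Hyou1, an ER chaperone of the HSP70 superfamily, were both lower in FKl/l MCK+. The element, written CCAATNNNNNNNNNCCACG and searched on both strands from 250 bases before to 50 bases after each gene start in RefSeq (GRCm38.p6), was found in 39 of 32851 promoters (0.119%). Among the 22 genes of the response list with a promoter entry it was found in 8 (36.4%). Chaperone genes are those on which the element is described to act, so this share is no result about the levels measured here. Manf and Hyou1 are not among these 22 and were not searched. The windows of these 8 genes are shown with the element in capitals, since the values that follow are read gene by gene beside them. The strand given is that of the printed letters. It is opposite to the strand of the gene for Calr, Creld2 and the Hsp90b1 window on the plus strand.
Hspa5, chr2:34772017-34772051, plus strand: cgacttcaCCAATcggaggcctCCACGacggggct
Hsp90b1, chr10:86705525-86705559, plus strand: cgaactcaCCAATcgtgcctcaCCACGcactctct
Hsp90b1, chr10:86705630-86705664, minus strand: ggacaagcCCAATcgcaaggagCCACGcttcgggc
Creld2, chr15:88819512-88819546, minus strand: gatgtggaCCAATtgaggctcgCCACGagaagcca
Syvn1, chr19:6046524-6046558, plus strand: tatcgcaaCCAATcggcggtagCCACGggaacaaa
Calr, chr8:84847067-84847101, plus strand: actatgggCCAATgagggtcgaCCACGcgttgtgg
Pdia6, chr12:17266483-17266517, plus strand: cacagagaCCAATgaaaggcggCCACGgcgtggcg
Canx, chr11:50325792-50325826, minus strand: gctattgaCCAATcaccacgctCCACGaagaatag
Dnajc3, chr14:118937819-118937853, plus strand: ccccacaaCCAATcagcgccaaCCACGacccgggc
All of these hold the element in full and differ in the spacer and the flanks, and Hsp90b1 holds it at both listed positions. A match describes these letters in this window and is not a measured binding site.

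Manf (ENSMUSG00000032575, chr9:106838312-106891979, minus strand) had 43.5, 56.5 and 68.2 CPM in FKl/l MCK+ and 59.7, 83.1 and 91.2 CPM in MHC CRE Only. The overlap came from the library labelled MHC CRE Only 1-3, the lowest of its group at 59.7 CPM. The log2 fold change was -0.51 ± 0.0976 (adjusted p = 0.0244, edgeR's quasi-likelihood test), and -0.56 without that library (adjusted p = 0.00918). Since the lowest library of its group was left out, a larger fall was built into that fit. Leaving out single libraries ended the call in 8 of 24 fits (adjusted p up to 0.0903). Dcaf1 overlaps Manf on the opposite strand and Rbm15b on the same strand, at log2 values of -0.13 and 0.00. Hyou1 (ENSMUSG00000032115, chr9:44379490-44392369, plus strand) had 28.2, 37 and 44.3 CPM and 37.5, 45.5 and 53.7 CPM, with ranges that overlapped between the batches and not within either. Its log2 fold change was -0.32 ± 0.0615 (adjusted p = 0.0244), lost in 6 of 24 such fits (adjusted p up to 0.096).

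Hspa5 encodes BiP, the ER chaperone that also holds the stress sensors inactive. It had 299, 359 and 435 CPM in FKl/l MCK+ and 446, 468 and 499 CPM in MHC CRE Only. The libraries did not overlap, and the log2 value of -0.38 ± 0.0852 missed the threshold (adjusted p = 0.0772). P4hb, the protein disulfide isomerase, also had ranges that did not overlap, 186 to 260 CPM and, from just above, 260 to 301 CPM (-0.30 ± 0.073, adjusted p = 0.115). Its difference was -0.51 in batch 1 and -0.09 in batch 2 (interaction adjusted p = 0.0317), and FKl/l MHC+ stood at 282 ± 16.2 CPM (SD, n = 6), with a log2 value over MHC CRE Only of 0.02. Xbp1, the transcription factor made active by IRE1, had 57.1 to 91 CPM and 74.9 to 101 CPM (-0.28 ± 0.0732, adjusted p = 0.161). The genes with the element in the windows above that were not called had log2 values of -0.22 for Hsp90b1, -0.26 for Creld2, -0.22 for Syvn1, -0.18 for Calr, -0.15 for Pdia6, -0.08 for Canx and 0.07 for Dnajc3.

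Of the 25 response genes tested, 2 were called lower (background 0.0499%) and 0 higher, and 23 had a log2 value below 0, with a median of -0.17 against 0.00 over all genes tested. At an unadjusted p under 0.05, 14 were lower and 1 higher, where 5.18% and 4.96% of all genes were. The exception was Sec61b, a subunit of the ER translocon, at 0.22. The summed level of the list was 1844 to 2208 CPM in FKl/l MCK+ and 2301 to 2439 CPM in MHC CRE Only, without overlap. The median was -0.25 in batch 1 and -0.11 in batch 2. Against FKl/l the median of FKl/l MCK+ was -0.04 with no gene called, and that of MHC CRE Only was 0.14. The median of FKl/l MHC+ over MHC CRE Only was -0.13 with 7 called lower (background 0.78%). By these medians, which pool the batches, MHC CRE Only stood highest. This was not so for every gene, as P4hb had means of 282 CPM in FKl/l MHC+ and 278 CPM in MHC CRE Only. For Hspa5 the means were 400 ± 91.2 CPM in FKl/l and 378 ± 53.3 CPM in FKl/l MHC+ (SD, n = 6 each). In batch 1 FKl/l had 296 to 345 CPM of Hspa5 and MHC CRE Only 450 to 488 CPM. In batch 2 they overlapped, at 444 to 504 CPM and 446 to 499 CPM. The related genes of the integrated stress response, which respond to ATF4, had no call among 23 tested and a median of -0.12, with 17 below 0, while the summed level had a median of 489 CPM, against 475 CPM in MHC CRE Only, with overlap. Sesn2 was at -0.36, Trib3 at -0.46, made of -0.05 in batch 1 and -0.87 in batch 2, and Ddit4, named after its values were seen, at 0.74 ± 0.313 (adjusted p = 0.448). Trib3 starts 0.795 Mb from the start of Fkbp1a.

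**Figure D4:**
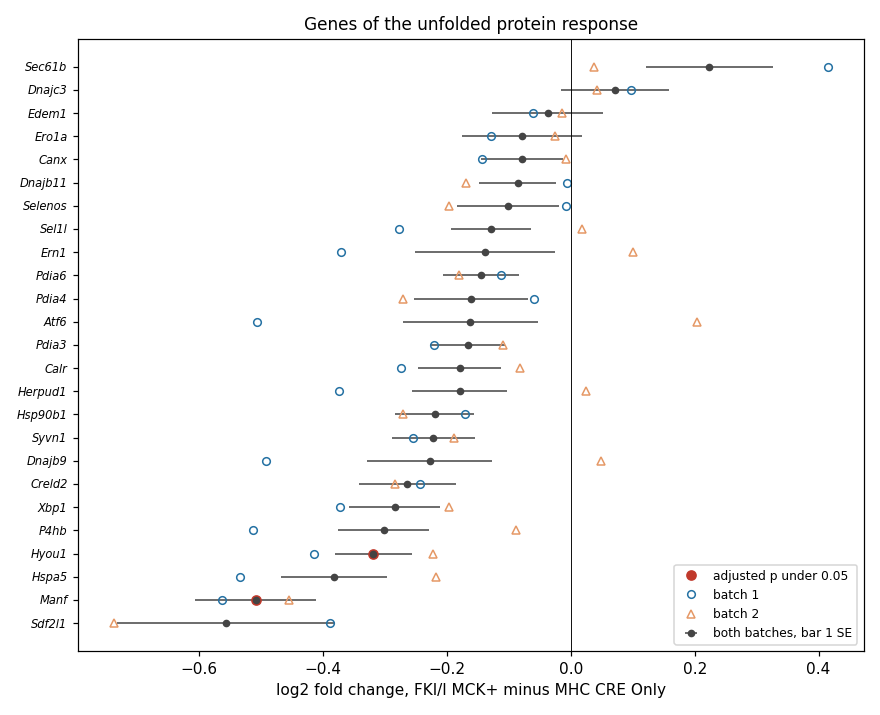
Log2 fold change (FKl/l MCK+ minus MHC CRE Only) of the 25 tested genes of the unfolded protein response, black with a bar of 1 SE for both batches, open circles for batch 1 and open triangles for batch 2, red for an adjusted p under 0.05. The black points of 23 genes are below 0, and Manf and Hyou1 are red.

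The lists of calcium handling, ion channels, conduction and contraction held no called gene beyond Kcne1. Rem1, called and described above, is in none of these lists. Among 30 genes of calcium release and uptake the median log2 value was -0.03, and Ryr2, the ryanodine receptor to which FKBP12 binds, had 629 ± 69.7 CPM and 632 ± 39.8 CPM (SD, n = 6 each; adjusted p = 0.956). Atp2a2, the calcium pump of the sarcoplasmic reticulum, was at -0.23 ± 0.121 (adjusted p = 0.544), Pln, its inhibitor, at -0.06 and Casq2, the calcium store protein, at -0.09. Trdn, which anchors calsequestrin, had the smallest p of the list, at 0.39 ± 0.108 (adjusted p = 0.213). Of 34 cardiac ion channel genes, Kcne1 alone was called and the median was 0.00, with Cacna1c, the L-type calcium channel, at 0.02. Of 19 genes of the conduction system 15 were above 0, with a median of 0.13, and Kcne1 was again the called one; Gja5 and Hcn4 were at 0.07 and 0.05.

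Sarcomere and Z-disc genes had a median of 0.00 over 29 tested with no call, and Nexn, a Z-disc actin binder, had the smallest p (0.50 ± 0.127, adjusted p = 0.161). In the dystrophin complex and intercalated disc, 24 genes tested, Dmd had libraries that did not overlap, 31.4 to 37.1 CPM and 22.7 to 30.9 CPM (0.29 ± 0.0748, adjusted p = 0.169). In FKl/l MHC+ Dmd was lower than in MHC CRE Only (-0.49, adjusted p = 0.000511). The fetal and stress program gave a median of -0.03 over 26 genes and no call, with Mt2, a metallothionein, at 5.17 to 8.12 CPM and 8.73 to 15.8 CPM (-0.68 ± 0.31, adjusted p = 0.468). In FKl/l MHC+ against MHC CRE Only the same list had a median of 0.36 and 4 genes called higher (background 1.09%). Fast skeletal isoforms (13 tested), cardiac transcription factors (24) and calcineurin and adrenergic signalling (30) had no call, with medians of -0.18, -0.03 and -0.04; Srf was at -0.31 and Adrb1, the main cardiac beta-adrenergic receptor, at -0.32. Complement and iron handling had Masp1 as its called member among 25.

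Among the lists of other cell types and of the cell cycle no gene was called. All 20 endothelial markers were above 0, with a median of 0.12 and 7 at an unadjusted p under 0.05 (background 4.96%); Emcn was at 0.26 ± 0.08, Esam at 0.22 and Kdr, a receptor of vascular endothelial growth factor, at 0.20. Of 31 cell cycle genes 30 were above 0, median 0.14, with Prc1 at 0.83 ± 0.255 (adjusted p = 0.295) and Top2a at 0.69 ± 0.237 from levels of 0.803 to 3.17 CPM and 1.07 to 1.44 CPM. All 10 erythroid markers were above 0, median 0.31, with Hba-a1 at 0.37 ± 0.133 (adjusted p = 0.385). The summed levels overlapped in each case. They were 1651 to 2108 and 1565 to 1879 CPM for endothelial, 302 to 353 and 286 to 324 CPM for cell cycle, and 7887 to 14325 and 7740 to 10221 CPM for erythroid genes in FKl/l MCK+ and MHC CRE Only. Fibroblast markers had a median of 0.07 with 17 of 20 above 0, and extracellular matrix genes one of 0.05 over 42 tested. FKl/l MCK+ 1-2 had the highest summed level of its group for all 5 of these lists, for the matrix genes at 4908 CPM against 3977 CPM in the next library. Without it the medians were 0.09 for endothelial, 0.11 for cell cycle, 0.21 for erythroid, 0.02 for fibroblast and -0.06 for matrix genes. By batch, the endothelial median was 0.26 in batch 1 and 0.04 in batch 2, the cell cycle median 0.37 and 0.08, and the fibroblast median 0.22 and -0.06.

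The medians of some other lists depended on 1 library or on the batch. Lung and airway markers were all below 0 (13 tested, median -4.17), and the median was -2.03 without MHC CRE Only 2-3, the library that held 1370 CPM of them. Sftpa1, a surfactant protein of the lung, lay at 0 to 0.278 CPM in FKl/l MCK+ and 0.0583 to 14.4 CPM in MHC CRE Only. Mesothelial markers had a median of -0.37 (10 tested) and -0.16 without that library, and smooth muscle and pericyte markers one of -0.09 (16 tested) and 0.03 without it, with Cnn1 at 6.03 to 11 CPM and 7.72 to 50.9 CPM. Adipocyte markers had a median of -0.61 (17 tested), made of 0.48 in batch 1 and -2.06 in batch 2. Lymphocyte markers had one of 0.28 (14 tested), made of 0.67 and -0.56. Among 21 further lists, which cover energy metabolism, stress, signalling, other cells and sex-linked transcripts, no gene was called and the medians lay between -0.13 and 0.25. The lowest was that of the circadian clock and the highest that of the sex-linked transcripts. The latter had 5 of 6 above 0, with medians of 0.34 in batch 1 and 0.21 in batch 2. Of 36 interferon response genes 32 were above 0, with medians of 0.32 in batch 1 and -0.06 in batch 2.

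**Figure D5:**
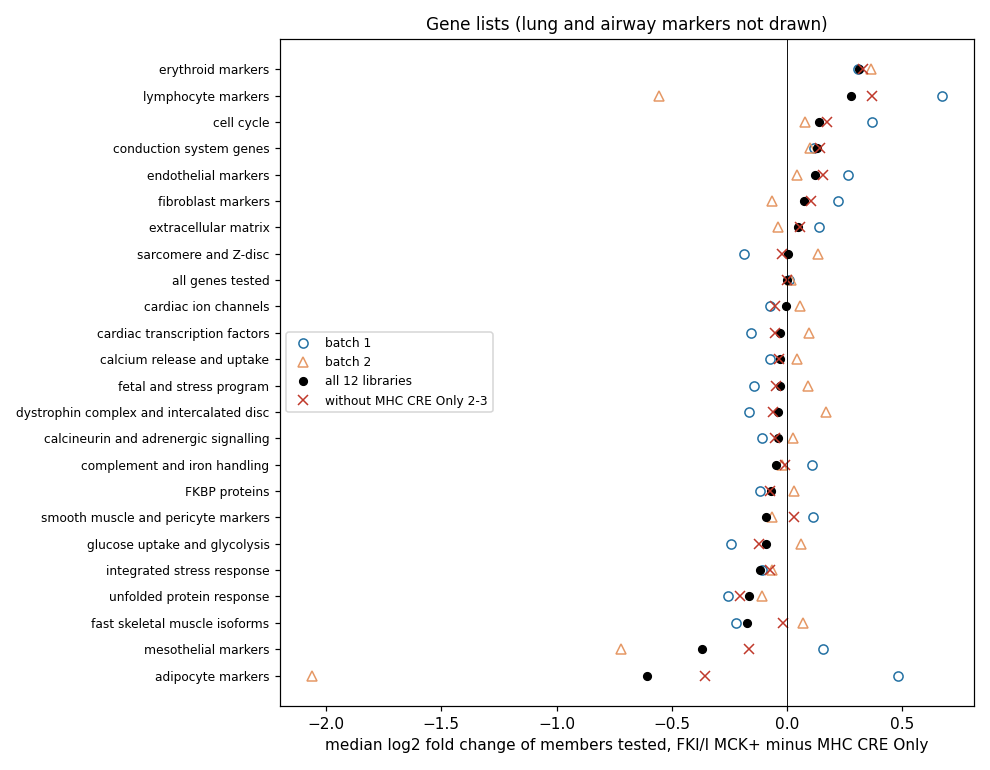
Median log2 fold change (FKl/l MCK+ minus MHC CRE Only) of the tested members of 23 described lists and of all genes, filled black for all 12 libraries, open circles for batch 1, open triangles for batch 2 and red crosses without MHC CRE Only 2-3. The unfolded protein response and the integrated stress response are below 0 in both batches. The erythroid, endothelial, cell cycle and conduction system lists are above 0 in both. All other lists drawn change sign between batches, with adipocyte and lymphocyte markers among them.

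The difference between the genotypes depended on the batch for many genes. A test of the genotype by batch interaction called 578 genes (3.61%), and none of the 16 genes was among them. Of the 578, 442 were lower in FKl/l MCK+ in batch 1 and higher in batch 2, 119 were the reverse and 17 had the same sign in both. The count rests on single libraries, because it was 0 when any of FKl/l MCK+ 1-2 or 2-2 or MHC CRE Only 1-3 or 2-3 was left out, and 1298 without FKl/l MCK+ 1-3 and 906 without MHC CRE Only 1-1. Among the 442 the median log2 change from batch 1 to batch 2 was 0.47 in FKl/l MCK+, 0.42 in FKl/l, 0.25 in FKl/l MHC+ and -0.09 in MHC CRE Only, and among the 119 it was -0.61, -0.39, -0.09 and 0.33. The sources used here do not say what separates the batches.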

How the data were processed

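The deposited table holds whole-number counts per gene that the authors did not normalize. Per the submitters' processing notes, RSEM, STAR, Trim Galore, FastQC and bcl2fastq 2.17 were used with mm10; the sources used here give no roles, annotation or strand setting. The libraries came from a directional kit, per the labels' protocols. Of 56384 rows, 3660 are named by transcript alone (0.873 to 4.28% of a library's counts) and were left out. Positions are from GENCODE M21 (51991 gene rows matched), and promoters from RefSeq.

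All 24 libraries entered edgeR's quasi-likelihood test (edgeR 4.0.16, limma 3.58.1, R 4.3.3) with genotype and batch, TMM scaling, filterByExpr and robust dispersions; 16018 genes were kept, which hold 99.89% or more of the counts in every library. Adjusted p-values are Benjamini-Hochberg over all genes tested, two-sided, and called means under 0.05. Every adjusted p printed is from this test unless another is named. CPM uses the scaled library sizes. The code was tested on simulated data.

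The members and all 45 gene lists were chosen with earlier results of these data known. Genes named are Fkbp1a, Fkbp1b, called genes with a usual symbol and, from the 24 lists described, called members or the 2 with the smallest p; others are said to be named after their values were seen, as are the further members of the unfolded protein response, FKBP, channel, calcium, conduction, endothelial and erythroid lists. Alternatives were DESeq2 1.42.0, limma voom, other scalings, filters and covariates, single batches and libraries left out. Libraries of the same genotype always differed beyond counting noise (chi-square per degree of freedom 9.29 to 157 over 30 pairs).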

Additional observations from a re-analysis of the deposited data

Results flagged for a closer look

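Among 48 groups of 6 libraries looked at (the levels of 23 genes and the mitochondrial share, in both genotypes), 3 held a library far from the rest of its group, where chance flags about 1 in 20. Gm49891 was at 0.644 CPM in MHC CRE Only 2-3, below the other MHC CRE Only libraries, and without that library its log2 fold change was 1.26 (adjusted p = 0.000455, edgeR). Fkbp1a was at 81.8 CPM in the library labelled MHC CRE Only 1-3. Masp1 was at 17.5 CPM in the same library.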

How the results depend on the processing

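The 16 called genes became 26 with no filter beyond 1 count (13 of the 16 among them), 6 with no batch term, 5 when tested against a fold of 1.2, 5 in batch 1 alone (2 among the 16), 44 in batch 2 alone (8 among the 16) and 57 with DESeq2 (all 16 among them); voom gave 12. Leaving out 1 library gave 8 to 23 genes: 8 without FKl/l MCK+ 1-3 or without MHC CRE Only 1-2, 2-1 or 2-2, 9 when FKl/l MCK+ 2-2 was omitted, and 10 when FKl/l MCK+ 1-1 or MHC CRE Only 1-1 was. Fkbp1a was -0.77 in batch 1 alone and no longer past the threshold; in all other alternatives it kept its call. The interaction count ranged from 0 to 1298 with 1 library left out and was 70 in the 12 libraries alone. The difference in mitochondrial share ran from -0.249 to 1.86 points with 1 library left out and was -1.13 in batch 1. Signs turned for Cnn1 in batch 1 alone (0.0226), Dnajc3 with a covariate of Y-linked transcripts (-0.0381) and Fkbp1b, which ran from -0.354 to 0.0137 with 1 library left out. With a replicate block in place of batch 13 genes were called, 12 among the 16; same-numbered libraries deviated together by correlations of -0.0337 to 0.133, so the numbers were not taken as pairs. The causes were not tested. Counts of few reads limit Fkbp1b, Slc52a3 and the lung markers other than Hopx.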
